A study of Mus musculus with 24 samples.

Results

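The genes described here are 51 that carry out or control DNA replication and cell division, taken from a list of symbols covering replication licensing, nucleotide supply, cyclins and their kinases, mitotic regulators and spindle proteins. The list names genes by their function. Of the 51 symbols, 50 were named by 117 probe sets of the Affymetrix MOE430A and MOE430B mouse arrays, out of 18193 genes and 45137 probe sets in all, and Ccnb1, which encodes cyclin B1, had none. A signal filter left 69 of the 117 probe sets for testing. These stood for 41 genes, 34 of them read from 430A and 7 from 430B (Pola1, Tyms, Ccne1, Cdkn3, Cdc25c, Bub1b and Cenpe).

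The study asked what dietary curcumin, the yellow polyphenol of turmeric, does to gene expression in the colon during colitis raised by an enema of trinitrobenzene sulfonic acid (TNBS), a hapten that provokes an acute inflammation of the bowel wall. Whole colon came from BALB/c mice, 6 to 8 weeks old, which had been put on their diet 2 days before the enema and were killed on day 7 after it. The 4 groups, of 3 samples each, were standard diet with control enema, standard diet with TNBS, curcumin diet (2%) with control enema and curcumin diet (2%) with TNBS, called below standard control, standard TNBS, curcumin control and curcumin TNBS. All carry the same strain background, and the labels also speak of littermates without naming a mutant allele. RNA was pooled from 3 mice within a group, and nothing in the labels tells whether each sample had a pool of its own, so p-values measure the spread between these samples, which may be technical. Whole colon holds crypt epithelium, muscle, fibroblasts and leukocytes, any of which can divide, and in such bulk samples fewer dividing cells and less RNA per cell cannot be told apart.

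In the colon, division is mostly the work of transit-amplifying cells in the lower crypt, whose daughters replace the surface epithelium, and injury and repair can add dividing stromal cells and leukocytes. Cells enter the cycle when D-type cyclins and their kinases relieve E2F factors of the retinoblastoma protein; E2F then turns on the genes for the MCM helicase, DNA synthesis and nucleotide supply. A later wave, which runs through CCAAT boxes and the cell cycle homology region element of promoters, supplies the cyclin-dependent kinase Cdk1, its cyclins and the spindle and checkpoint proteins of mitosis.

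To show the letters of these elements, the stretch of 250 bases before the transcription start is given for 4 of the genes. It comes from RefSeq on build GRCm38.p6 and is written 5′ to 3′ in the direction of the gene. The 4 were taken in order from a fixed list, and only promoters with an E2F or homology region match were shown. All 4 therefore had to hold such a match. Capitals mark E2F matches (TTTCGCGC or TTTGGCGC), homology region matches (TTTGAA) and CCAAT matches, each on either strand; overlapping matches run together. Cdk1 is the kinase that drives entry into mitosis, Mcm6 a subunit of the replicative helicase, Mki67 a coat protein of mitotic chromosomes used as the standard marker of dividing cells, and Top2a the topoisomerase that untangles sister chromatids.
Cdk1, chr10:69352913-69353162, minus strand: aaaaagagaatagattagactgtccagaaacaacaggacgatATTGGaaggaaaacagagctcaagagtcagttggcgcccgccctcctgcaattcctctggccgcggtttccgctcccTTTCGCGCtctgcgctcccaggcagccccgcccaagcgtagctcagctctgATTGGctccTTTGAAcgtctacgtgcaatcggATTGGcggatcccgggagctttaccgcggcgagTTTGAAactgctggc
Mcm6, chr1:128359706-128359955, minus strand: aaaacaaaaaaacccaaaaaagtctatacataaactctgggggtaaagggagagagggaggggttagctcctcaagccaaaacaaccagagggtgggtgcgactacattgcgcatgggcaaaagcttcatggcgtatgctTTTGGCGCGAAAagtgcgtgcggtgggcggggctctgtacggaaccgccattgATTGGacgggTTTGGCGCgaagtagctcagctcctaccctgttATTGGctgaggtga
Mki67, chr7:135716380-135716629, minus strand: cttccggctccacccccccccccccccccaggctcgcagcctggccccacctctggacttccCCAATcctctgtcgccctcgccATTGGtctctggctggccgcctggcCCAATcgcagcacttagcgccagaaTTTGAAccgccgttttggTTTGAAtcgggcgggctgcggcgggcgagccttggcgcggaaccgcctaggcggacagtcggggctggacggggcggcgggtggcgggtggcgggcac
Top2a, chr11:99024190-99024439, minus strand: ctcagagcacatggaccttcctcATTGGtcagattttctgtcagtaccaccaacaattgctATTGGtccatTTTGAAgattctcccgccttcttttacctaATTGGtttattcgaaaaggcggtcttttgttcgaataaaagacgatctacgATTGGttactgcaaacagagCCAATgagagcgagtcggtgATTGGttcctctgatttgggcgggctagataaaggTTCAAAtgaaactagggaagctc
The promoter of Cdk1 held 1 E2F and 2 homology region matches, Mcm6 held 3 E2F matches and no homology region match, and Mki67 and Top2a held 2 homology region matches each and no E2F match of these letters. Rrm2 held neither and is not shown. RefSeq promoters were at hand for 41 of the 51 genes, 43 promoters in all. E2F letters were found in 5 of these 43 (11.6%) and in 0.654% of all 32851 promoters of the table. CCAAT was found in 31 (72.1%) against 33.8%, the homology region element in 9 (20.9%) against 16%, and the Sp1 letters GGGCGG in 30 (69.8%) against 32.7%. These counts describe letters in the window, not bound sites, and no array value enters them.

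Each sample was hybridised to one 430A and one 430B array, whose signals had been scaled by the depositors to a trimmed mean close to 500. The median signal was 226.7 to 284.0 per 430A array and 256.5 to 346.2 per 430B array, and the number of arrays limits the precision. A pair of technical patterns bears on the results. The first principal component of the other genes, 31.9% of their variance, split the 430A arrays into set 1 and set 2. Set 1 held standard control 1, standard TNBS 2 and 3, curcumin control 2 and 3, and curcumin TNBS 1, and set 2 the rest. The labels name no batch, and each group has samples in both sets, but unequally. Most standard TNBS and curcumin control samples lie in set 1, and most standard control and curcumin TNBS samples in set 2. The array set is therefore partly confounded with each comparison of single groups and with the interaction. Within a set, each comparison of single groups sets 1 sample against 2, and the interaction rests on 1 or 2 samples per group. Values within a set are therefore given without an SE. On 430B, curcumin TNBS 2 and 3 stood 7.22 and 7.44 median absolute deviations from the other arrays. Log2 differences below come from limma on log2(signal + 16). A second fit, called the fit with array sets, had a term for the array set on 430A only. On 430B it had no such term and left out these 2 arrays. That leaves the curcumin TNBS group 1 sample there, assumed to vary like the others. Pancreatic acinar transcripts differed widely between samples of every group (summed signal of 7 markers from 2177.3 to 95672.6).

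No cell cycle gene passed an adjusted p of 0.05 in any comparison, in either limma fit, so all differences given for them are values that did not pass the test. Counts of genes, shares of all genes and smallest p-values refer to the probe set that stood for each gene. Other probe sets, and those without a single gene symbol, are not in these counts and shares. The direction of the small differences was uneven. On the standard diet 35 of 41 genes were higher after TNBS, with a median log2 difference of 0.23, while the median over all 12911 genes tested was -0.01 and 48.1% of them were higher. Under TNBS 36 of 41 were lower on curcumin than on the standard diet, with a median of -0.23, while 49.6% of all genes were higher. Both comparisons use the standard TNBS samples, so these counts are not separate evidence. The spread between samples of a group was of the same order: the median SD within a group, on the log2 scale, was 0.32 over the 41 (0.17 to 0.64) and 0.25 over all genes tested.

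The genes also differed sample by sample. The median deviation of the 41 genes from their own means was 0.08, 0.09 and -0.37 in standard control 1 to 3, 0.33, 0.03 and 0.19 in the standard TNBS samples, 0.05, 0.04 and 0.06 in the curcumin control samples and 0.00, -0.13 and -0.15 in the curcumin TNBS samples. Standard control 3 was the lowest of the 12 samples for 17 of 41 genes and below the mean for 36, and it was the highest for none. Standard TNBS 1 and 3 were the highest samples for 13 and 10 genes. The low level in standard control 3 lay in the mitotic genes: over the 18 genes of the mitotic roles with Mki67 and Top2a its median deviation was -0.64, against 0.19 and 0.21 in its group, whereas over the 15 replication and nucleotide genes it was -0.20, against -0.10 and -0.01. Its epithelial and crypt marker lists did not stand apart (median deviations of -0.07 and 0.01).

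**Figure D1:**
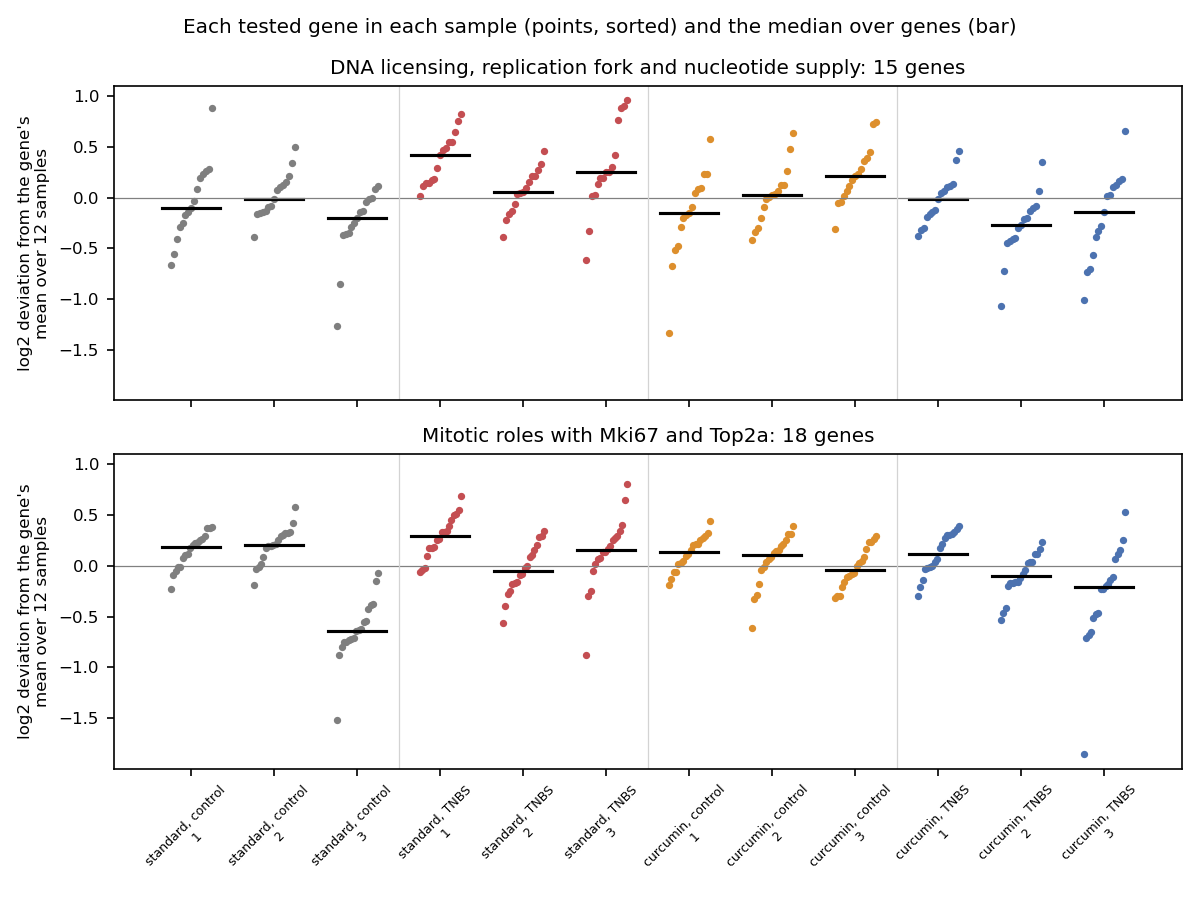
Log2 deviation of each tested gene from its own mean over the 12 samples (y axis) in each sample (x axis), above for the 15 replication and nucleotide genes and below for the 18 mitotic genes, with Mki67 and Top2a; points are genes, black bars their median. In the lower panel standard control 3 has its median at -0.64, and in the upper panel the standard TNBS samples have theirs at 0.42, 0.05 and 0.25.

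The first comparison asks what TNBS changed on the standard diet, 7 days after the enema. None of the 41 cell cycle genes passed (smallest adjusted p 0.243 in limma, for Rrm2), where 0.0155% of all genes passed as higher and 0% as lower. At an unadjusted p under 0.05, 5 of 41 were higher (Rrm2, Cdt1, Mcm5, Ccnd1 and Mcm2) and none lower, against 3.94% of all genes higher and 4.45% lower. Once the array set entered the fit again none passed, against 0.17% of all genes as higher and 0.132% as lower, and 6 were higher at that unadjusted level, against 5.49%. TNBS and control samples did not overlap, with TNBS higher, for 4 of 41 genes (9.76%; Cdkn1a, Cdt1, Mcm5 and Rrm2), close to the 7.67% of all genes, and none was lower without overlap, against 7.3%. The median difference was 0.10 without standard control 3, with 26 of 41 higher, and 0.15 without standard TNBS 1, with 32 higher. Over the 34 genes on 430A it was 0.05 within array set 1 and 0.44 within set 2, which holds that sample. The number of genes without overlap, higher after TNBS, was 5 without standard control 3 or standard TNBS 1. It was 10 without standard control 1 or 2, 11 without standard TNBS 2 and 7 without standard TNBS 3. Lower without overlap were 2 genes without standard control 3 or standard TNBS 1, and 1 without standard TNBS 3. With fewer samples any gene overlaps less readily. The share of all genes was not counted for these smaller sample sets, so these counts cannot be set against 7.67%.

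Of the role groups, the 4 nucleotide genes had the largest median difference, 0.48. Rrm2, the regulated small subunit of ribonucleotide reductase, which makes deoxyribonucleotides for S phase, had signals of 377, 377 and 325 in the standard control samples, 754, 486 and 786 in the standard TNBS samples, 369.7, 415 and 541 in the curcumin control samples and 377, 337 and 199.6 in the curcumin TNBS samples. All standard TNBS samples lay above all standard control samples, and all curcumin TNBS samples lay below all standard TNBS samples. The log2 difference for TNBS on the standard diet was 0.85 ± 0.25 (SE; adjusted p 0.243 in limma), and it was 0.69 within array set 1 and 1.07 within array set 2. A second Rrm2 probe set gave 0.83 (adjusted p 0.175 in limma, and 0.106 in the limma fit with array sets). Rrm1, the large subunit of the same enzyme, read 499, 573 and 496 in the standard control samples, 724, 489 and 611 in the standard TNBS samples, 478, 513 and 536 in the curcumin control samples and 406, 476 and 418 in the curcumin TNBS samples. Its standard groups overlapped, with a difference of 0.20 ± 0.15. Tk1, thymidine kinase of the salvage route, read 423, 314 and 136 in the standard control samples, 354, 409 and 670.1 in the standard TNBS samples, 239.8, 495 and 598 in the curcumin control samples and 487, 256 and 209 in the curcumin TNBS samples. Standard control 3 was the lowest and standard TNBS 3 the highest of the 12, the standard groups overlapped, and the difference was 0.76 ± 0.44. The Tk1 difference was 0.30 within array set 1, 0.72 within array set 2 and 0.458 in the fit with array sets. Tyms, which makes thymidylate and was read on 430B, gave 190.2, 339 and 250.5 in the standard control samples, 321, 243 and 148 in the standard TNBS samples, 360.4, 183 and 239 in the curcumin control samples and 244, 104 and 381 in the curcumin TNBS samples. Its groups overlapped, with a difference of -0.15 ± 0.45 for TNBS on the standard diet.

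**Figure D2:**
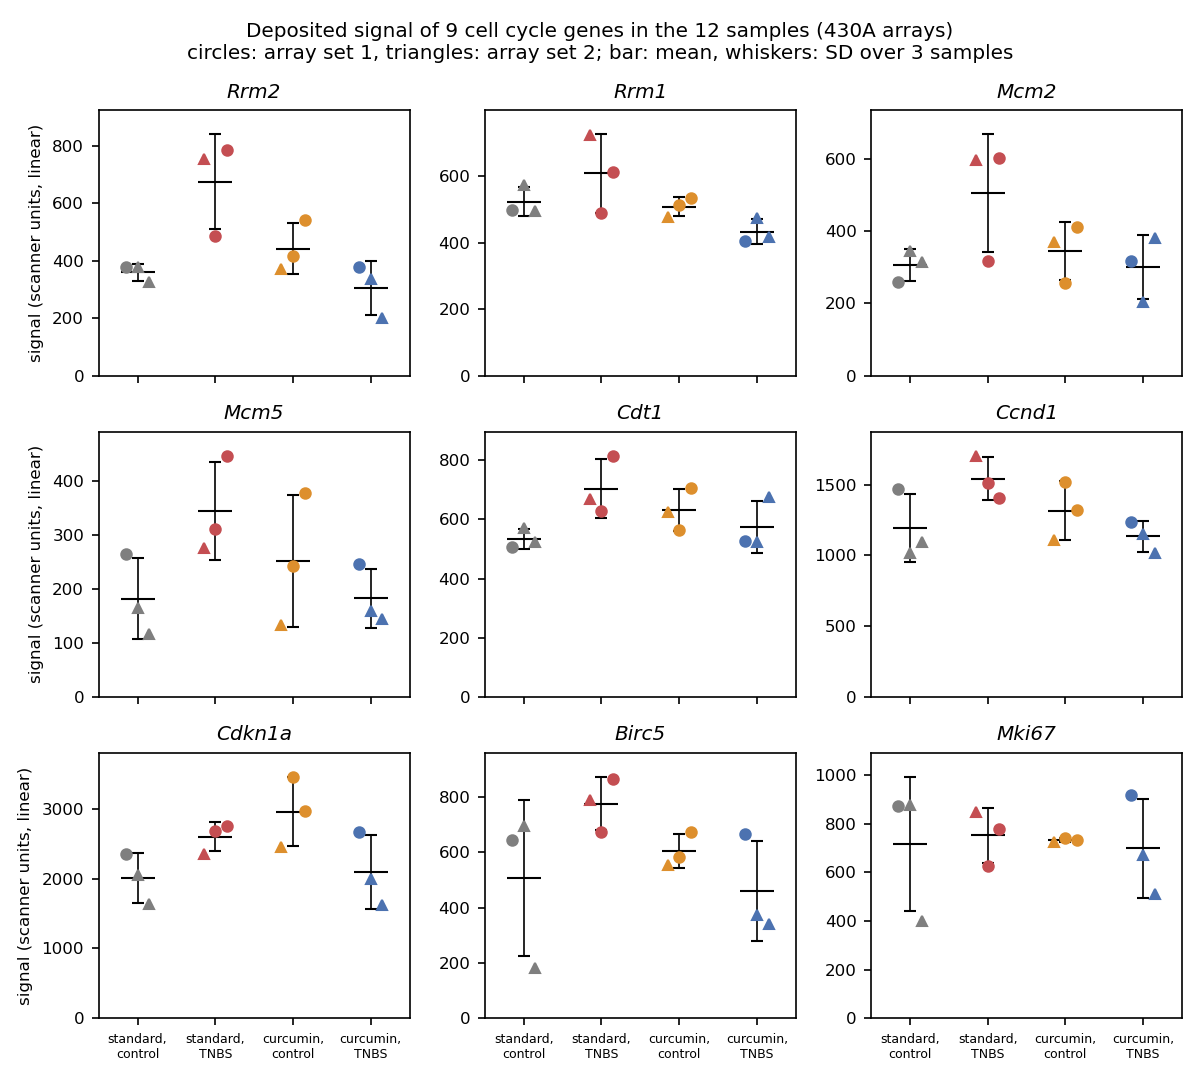
Deposited signal on a linear scale (y axis, from 0) of 9 cell cycle genes in the 4 groups (x axis); circles are samples of array set 1, triangles those of set 2, bars the mean and whiskers the SD over 3 samples. Rrm2 lies between 486 and 786 in the standard TNBS samples and between 199.6 and 377 in the curcumin TNBS samples, while Mki67 and Birc5 have 1 low standard control sample.

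All 11 tested licensing and fork genes were higher after TNBS on the standard diet, with differences from 0.01 to 0.91 and a median of 0.27. Mcm2 to Mcm7 form the ring-shaped helicase that is loaded at origins in G1 and opened in S phase. For the Mcm5 subunit the signals were 264, 166 and 116 in the standard control samples, 276, 312 and 447 in the standard TNBS samples, 133, 243 and 377 in the curcumin control samples and 245, 158 and 145 in the curcumin TNBS samples. Standard TNBS lay above standard control without overlap, but the curcumin control samples spanned both groups. The Mcm5 difference was 0.91 ± 0.37 (adjusted p 0.461 in limma). It was 0.47 within array set 1, 0.91 within array set 2 and 0.655 in the fit with array sets. Mcm2 read 259, 344 and 314 in the standard control samples, 596, 316 and 601 in the standard TNBS samples, 370.0, 256 and 411 in the curcumin control samples and 317, 204 and 379.9 in the curcumin TNBS samples. Standard TNBS 1 and 3 were far above every other sample and standard TNBS 2 lay among the controls, so that the difference of 0.65 ± 0.28 had an adjusted p of 0.508 in limma. Mcm6 read 639, 308 and 274 in the standard control samples, 539.6, 413 and 344 in the standard TNBS samples, 240.1, 293 and 469.9 in the curcumin control samples and 336, 252 and 198 in the curcumin TNBS samples, with standard control 1 the highest of the 12 and a difference of 0.16 ± 0.33. For Mcm3, Mcm4 and Mcm7 the differences were 0.29, 0.27 and 0.29.

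Cdt1, which loads the helicase and is destroyed once replication starts, read 506, 571 and 524 in the standard control samples, 670.3, 628 and 815 in the standard TNBS samples, 625, 564 and 705 in the curcumin control samples and 527, 523 and 677 in the curcumin TNBS samples. The standard TNBS samples lay above the standard controls without overlap, by 0.38 ± 0.15 (adjusted p 0.442 in limma), and its second probe set gave 0.37. Pcna, the sliding clamp of the DNA polymerases, read 3169, 2742 and 2013 in the standard control samples, 2887, 2792 and 3104 in the standard TNBS samples, 2127, 2730.1 and 3423 in the curcumin control samples and 2815, 1974 and 2069 in the curcumin TNBS samples. Its groups overlapped throughout, and the TNBS difference was 0.17 ± 0.20. Prim1, the catalytic primase subunit, Pola1, the polymerase that extends the primer, and Mcm10, which helps to activate the helicase, differed by 0.13, 0.23 and 0.01.

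Among the G1 and S phase regulators, 5 of 6 were higher and 1 lower. Ccnd1, cyclin D1, which links growth signals to the cell cycle, read 1468, 1015 and 1094 in the standard control samples, 1703, 1512 and 1405 in the standard TNBS samples, 1106, 1520.5 and 1317 in the curcumin control samples and 1235, 1150.3 and 1018 in the curcumin TNBS samples. Standard control 1 overlapped the standard TNBS samples and the other controls lay below them; the difference was 0.38 ± 0.16 (adjusted p 0.504 in limma), -0.01 within array set 1 and 0.68 within array set 2. Ccnd2, cyclin D2, read 1702, 1349 and 1715 in the standard control samples, 1338, 1946 and 2183 in the standard TNBS samples, 1420.1, 1686 and 2265 in the curcumin control samples and 1667, 1569 and 1667 in the curcumin TNBS samples by its brightest probe set. The difference was 0.18 ± 0.20, but its 4 other tested probe sets gave the opposite sign, from -0.62 to -0.13. Cdk4, the kinase partner of the D cyclins, read 805, 703 and 703 in the standard control samples, 600.4, 692 and 913 in the standard TNBS samples, 666, 723 and 780.5 in the curcumin control samples and 719, 713 and 666 in the curcumin TNBS samples. Its difference was -0.02 ± 0.15. E2f1, the transcription factor of the S phase genes, read 89.9, 167 and 254 in the standard control samples, 329, 184 and 195 in the standard TNBS samples, 284, 202 and 128 in the curcumin control samples and 139, 227 and 306 in the curcumin TNBS samples. Its difference was 0.49 ± 0.40, and in the fit with array sets it was 0.78 (adjusted p 0.132 in limma). That was the smallest adjusted p for that comparison and fit among the probe sets that stood for the genes. Cdk2, the S phase kinase, and Ccne1, cyclin E1, its partner, differed by 0.08 and 0.06.

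Cdkn1a encodes p21, an inhibitor of cyclin-dependent kinases that p53 induces. Its signals were 2349.6, 2055 and 1636 in the standard control samples, 2359.7, 2687 and 2756 in the standard TNBS samples, 2458, 3452 and 2963 in the curcumin control samples and 2666, 1991 and 1624 in the curcumin TNBS samples. The standard TNBS samples lay just above the standard controls without overlap, by 0.38 ± 0.19 (adjusted p 0.599 in limma). Cdkn3, a phosphatase that acts on the cyclin-dependent kinases, was higher by 0.35.

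Of the mitotic genes, 2 of 4 for mitotic entry, all 4 kinases and checkpoint genes, both of the anaphase-promoting complex and 4 of 6 of the spindle and kinetochore were higher, as were the proliferation markers Mki67 and Top2a. Mki67 read 872, 877 and 399 in the standard control samples, 848, 627 and 778 in the standard TNBS samples, 723, 741 and 732 in the curcumin control samples and 916, 669.6 and 509 in the curcumin TNBS samples. Standard control 3 was the lowest of all samples and the rest of the groups overlapped; the TNBS difference was 0.14 ± 0.28, -0.31 within array set 1 and 0.51 within array set 2. Top2a read 776, 633 and 400.5 in the standard control samples, 718, 594 and 657 in the standard TNBS samples, 522, 684 and 721 in the curcumin control samples and 610.5, 444 and 508 in the curcumin TNBS samples, a difference of 0.17 ± 0.22 that became -0.10 without standard control 3. Ccna2, cyclin A2, which acts in S phase and at mitotic entry, read 1044, 903 and 473 in the standard control samples, 1093, 702 and 915 in the standard TNBS samples, 763, 991 and 740.1 in the curcumin control samples and 900.4, 710.2 and 568 in the curcumin TNBS samples. Cdk1 read 467, 593 and 359 in the standard control samples, 675, 442 and 533 in the standard TNBS samples, 547, 303 and 469.7 in the curcumin control samples and 466, 419 and 496 in the curcumin TNBS samples. Both had overlapping groups, with differences of 0.21 ± 0.28 and 0.22 ± 0.24. Ccnb2, cyclin B2, and Cdc25c, the phosphatase that activates Cdk1, differed by -0.00 and -0.12.

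Birc5, survivin, a subunit of the chromosomal passenger complex with the kinase Aurkb, read 643, 694 and 181 in the standard control samples, 788, 674 and 864 in the standard TNBS samples, 555, 582 and 673 in the curcumin control samples and 666, 372 and 342 in the curcumin TNBS samples. Standard control 3 was again the lowest of the 12 and the other controls lay beside the TNBS samples, so that the difference of 0.80 ± 0.40 (adjusted p 0.589 in limma) was 0.24 within array set 1 and 1.10 within array set 2. Aurka, the spindle pole kinase, read 329, 274 and 163 in the standard control samples, 266, 321 and 356 in the standard TNBS samples, 251, 305 and 294 in the curcumin control samples and 277, 284 and 250.1 in the curcumin TNBS samples. Plk1, a kinase of mitotic entry and exit, read 278, 324 and 157 in the standard control samples, 289.8, 239.9 and 307 in the standard TNBS samples, 244, 262 and 259.7 in the curcumin control samples and 317, 260.3 and 174 in the curcumin TNBS samples. Both were lowest in standard control 3, with TNBS differences of 0.33 ± 0.23 and 0.18 ± 0.27. Cdc20, the activator of the anaphase-promoting complex, read 743, 599.5 and 367 in the standard control samples, 702, 753 and 624 in the standard TNBS samples, 756, 682 and 567 in the curcumin control samples and 608, 549 and 541 in the curcumin TNBS samples. Ube2c, the ubiquitin-conjugating enzyme of that complex, read 635, 734 and 373 in the standard control samples, 814, 630.0 and 778 in the standard TNBS samples, 659.8, 619 and 721 in the curcumin control samples and 625, 659 and 544 in the curcumin TNBS samples. Their lowest sample was standard control 3 as well, and the differences were 0.33 ± 0.21 and 0.39 ± 0.21. Of the spindle genes, Kif11, the motor that separates the poles, and Cenpa, the centromeric histone, differed by 0.32 and 0.42. The 2 other tested Cenpa probe sets gave -0.17 and 0.13. The spindle proteins Nusap1 and Tpx2 differed by -0.21 and -0.04.

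**Figure D3:**
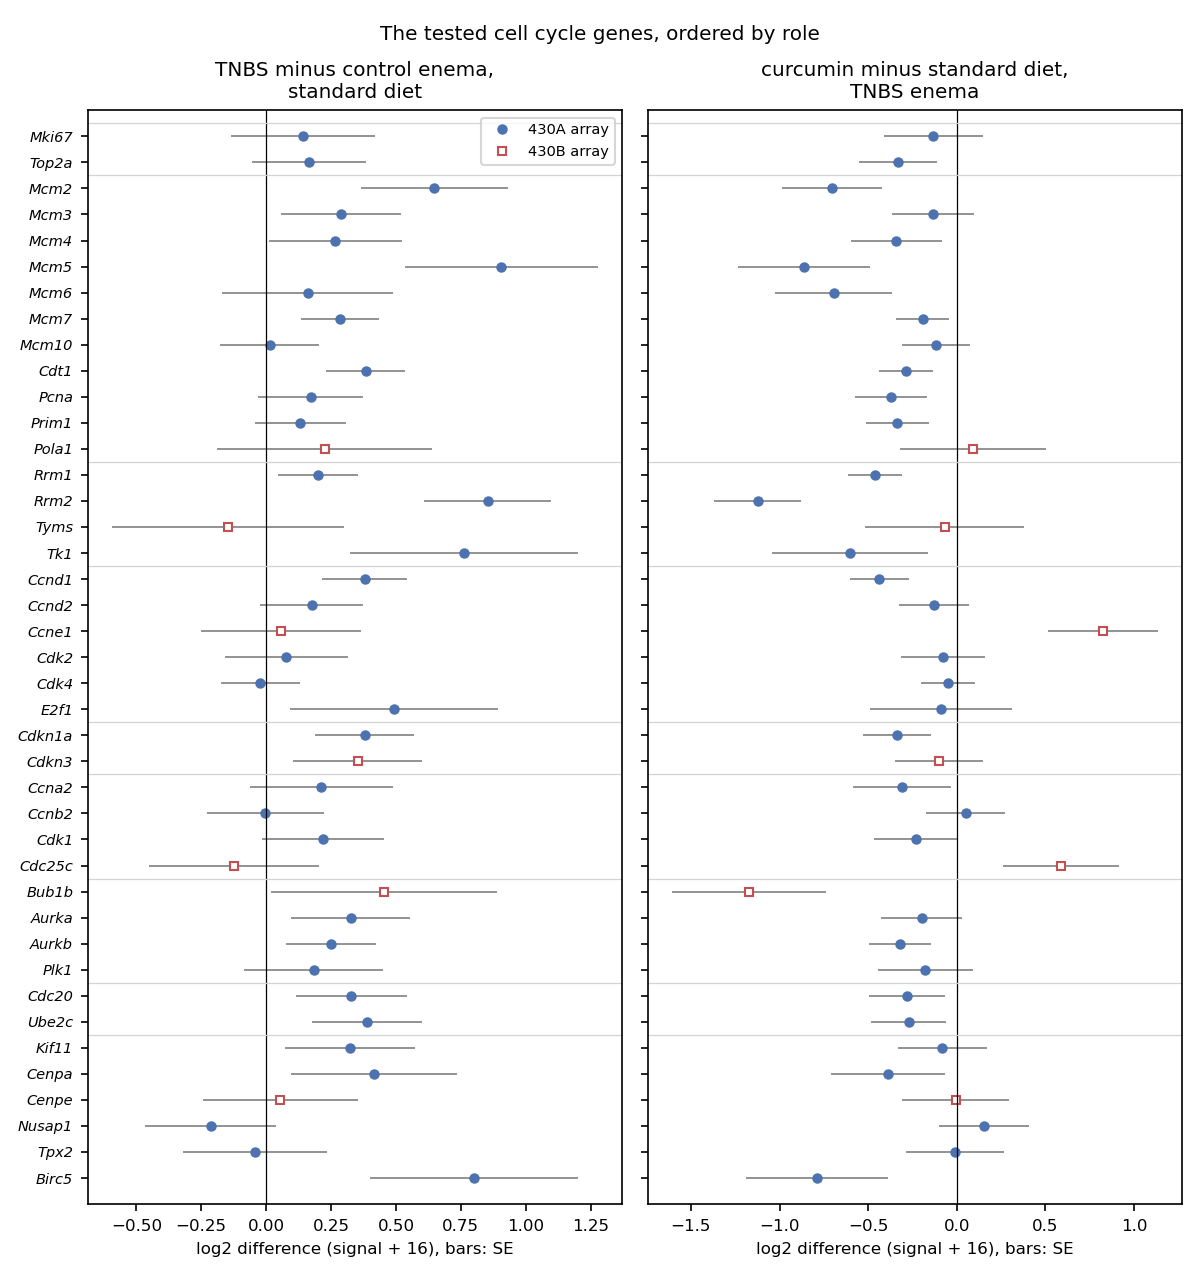
Log2 difference (x axis) of the 41 tested genes, ordered by role (y axis), for TNBS against control enema on the standard diet (left) and for curcumin against standard diet under TNBS (right); filled circles were read on 430A, open squares on 430B, and bars are the SE. On the left 35 of 41 points lie above 0 and on the right 36 of 41 lie below, and the panels share the standard TNBS samples.

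The next comparison asks what curcumin changed under TNBS. None of the 41 genes passed in limma (smallest adjusted p 0.132, for Bub1b), where 0.116% of all genes passed as higher and 0.55% as lower. At an unadjusted p under 0.05, 6 were lower (Rrm2, Rrm1, Bub1b, Ccnd1, Mcm2 and Mcm5) and Ccne1 was higher, against 8.74% of all genes lower and 6.75% higher. In the fit with array sets none passed, against 0.0852% of all genes as higher and 0.0775% as lower, and again 6 were lower at that unadjusted level, against 6.24%. For 10 of 41 genes (24.4%) every curcumin TNBS sample lay below every standard TNBS sample, where 10.3% of all genes did so: Rrm1, Rrm2, Mcm5, Mcm6, Prim1, Ccnd1, Aurkb, Bub1b, Cdc20 and Birc5. No gene was higher without overlap, against 9.46% of all genes. Leaving out 1 sample of the comparison in turn gave 10 to 19 genes lower without overlap, with 19 without standard TNBS 2 and 16 without curcumin TNBS 1. Higher without overlap were 2 genes without standard TNBS 1, and 1 without curcumin TNBS 1 or 2. The share of all genes was not counted for these smaller sample sets, in which any gene overlaps less readily. These counts therefore cannot be set against 10.3%. On 430A the median difference was -0.15 within array set 1 and -0.46 within set 2. Without curcumin TNBS 2 and 3, the samples that stood apart on 430B, the median over all 41 was -0.13, with 29 lower and 1 sample left in that group.

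Rrm2 was lower in the curcumin TNBS samples with a log2 difference of -1.12 ± 0.25 (adjusted p 0.143 in limma), with -0.69 within array set 1 and -1.48 within array set 2. The second Rrm2 probe set gave -0.89, and in the fit with array sets the difference was -1.07 (adjusted p 0.0756 in limma). Curcumin TNBS samples of Rrm2 came close to the standard controls or below them. The Rrm1 difference was -0.46 ± 0.15 (adjusted p 0.312 in limma), but its second probe set gave -0.04. Of the fork genes, 10 of 11 were lower, with a median of -0.33: Mcm5 by -0.86 ± 0.37, Mcm2 by -0.70 ± 0.28 and Mcm6 by -0.70 ± 0.33, with adjusted p-values of 0.455, 0.408 and 0.503 in limma. A Mcm5 probe set on 430B gave 0.87, against the sign of the others. Cdt1, Pcna and Prim1 differed by -0.29, -0.37 and -0.34.

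Ccnd1 was lower without overlap, by -0.44 ± 0.16 (adjusted p 0.371 in limma), with both of its other probe sets of the same sign. Cdkn1a had a difference of -0.34 ± 0.19, which its second probe set did not share (0.07) and which was 0.04 without curcumin TNBS 2 and 3. Birc5 had -0.79 ± 0.40, -0.19 within array set 1 and -1.11 within array set 2: curcumin TNBS 1 lay level with the standard TNBS 2 sample while curcumin TNBS 2 and 3 lay far below. Mki67, Top2a, Ccna2 and Cdk1 differed by -0.13, -0.33, -0.31 and -0.23, all with overlap. Aurkb read 348, 414 and 272 in the standard control samples, 458, 388 and 379 in the standard TNBS samples, 386, 420.2 and 321 in the curcumin control samples and 326, 312 and 331 in the curcumin TNBS samples. Its curcumin TNBS samples were close together and below all standard TNBS samples, by -0.32 ± 0.17, and Cdc20 was in the same position by -0.28 ± 0.21.

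The genes read on 430B have to be taken apart, since 2 of the 3 curcumin TNBS arrays there stood apart as a whole. Ccne1 read 484, 397 and 599 in the standard control samples, 655, 434 and 458 in the standard TNBS samples, 604, 531 and 773 in the curcumin control samples and 503, 1239.7 and 1203 in the curcumin TNBS samples. Only the 2 outlying arrays were high, and the difference of 0.83 ± 0.31 (adjusted p 0.134 in limma) was -0.01 without them. Bub1b, a kinase of the spindle checkpoint, read 414, 492 and 267 in the standard control samples, 481, 465 and 649.7 in the standard TNBS samples, 438, 455 and 290.0 in the curcumin control samples and 464, 259.7 and 89 in the curcumin TNBS samples. Here the same arrays were low, and -1.17 ± 0.44 (adjusted p 0.132 in limma) became -0.17. When curcumin TNBS 1 was left out instead, only the outlying arrays stood for the group. These 2 genes then passed, with adjusted p-values of 0.00391 for Ccne1 and 0.0101 for Bub1b in limma. The share of all genes that passed in that fit was not counted. Cdc25c read 409.6, 331 and 339.5 in the standard control samples, 618, 283 and 198 in the standard TNBS samples, 412, 333 and 304 in the curcumin control samples and 502, 449 and 555 in the curcumin TNBS samples, with all curcumin TNBS samples above all curcumin controls, and 0.59 ± 0.33 stayed at 0.59 without the outlying arrays. Cenpe, a kinetochore motor, read 659, 723 and 399.6 in the standard control samples, 617, 416 and 832 in the standard TNBS samples, 729, 749 and 739.6 in the curcumin control samples and 778, 705 and 384 in the curcumin TNBS samples, which gave -0.01 ± 0.30. Pola1 read 243, 245 and 261 in the standard control samples, 369, 334 and 206 in the standard TNBS samples, 94, 415 and 209 in the curcumin control samples and 343, 339.8 and 266 in the curcumin TNBS samples, and Cdkn3 read 458, 679 and 351 in the standard control samples, 762, 528 and 578 in the standard TNBS samples, 689, 601 and 462 in the curcumin control samples and 627, 539 and 556 in the curcumin TNBS samples. Neither had an order between the TNBS groups.

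TNBS against control enema on the curcumin diet had the opposite lean to the comparison on the standard diet. Of 41 genes 6 were higher and 35 lower, with a median of -0.15, while 47.8% of all genes were higher. None passed in limma (smallest adjusted p 0.303), against 0.0232% of all genes passing as higher and 0.101% as lower; at an unadjusted p under 0.05, 2 were lower (Cdkn1a and Rrm2) and none higher, against 6.4% and 4.43% of all genes. In the fit with array sets neither these genes nor any other passed (0% in both directions). The samples did not overlap for Mcm4 and Rrm1, which were lower (4.88%, against 6.41% of all genes), and for Cdc25c, which was higher (2.44%, against 5.62%). The second tested Rrm1 probe set did not share this difference (0.009). The median was -0.03, with 18 genes higher and 23 lower, without curcumin TNBS 2 and 3 together, which leaves 1 sample in that group. Without either alone it was -0.15 and -0.12, and without curcumin TNBS 1 it was -0.24, with 34 lower. In the fit with array sets it was -0.14, with 31 lower, and on 430A it was -0.10 within set 1 and -0.16 within set 2. The number of genes lower without overlap was 14 without curcumin TNBS 1, 10 without curcumin control 1 and 5 without curcumin control 3. It was 4 without curcumin control 2 or curcumin TNBS 3, and 2 without curcumin TNBS 2. Higher without overlap were 2 genes without curcumin control 2 or curcumin TNBS 1, and 1 in each other case. For these smaller sample sets the share of all genes was not counted. Rrm2 differed by -0.54 ± 0.25 (adjusted p 1.0 in limma) and Cdkn1a by -0.51 ± 0.19 (adjusted p 1.0 in limma). Mcm4, another helicase subunit, read 285, 536 and 499 in the standard control samples, 682, 348 and 571 in the standard TNBS samples, 544, 470.1 and 520.1 in the curcumin control samples and 372, 379.6 and 464 in the curcumin TNBS samples, a difference of -0.33 ± 0.26. With the array sets in the fit it was -0.47.

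Curcumin against the standard diet without colitis gave small differences: 32 of 41 genes were higher and 9 lower, with a median of 0.15, while 49.9% of all genes were higher. None passed in limma, as 0% of all genes did in either direction and in either fit, and at an unadjusted p under 0.05 Cdkn1a was the 1 gene, higher, against 1.7% of all genes higher and 1.88% lower. Cdkn1a and Cenpe were higher without overlap (4.88%, against 3.79% of all genes), and none was lower, against 4.05%. Without standard control 3 the median was -0.03, with 17 higher and 24 lower, and without standard control 2 it was 0.24, with 37 higher. Leaving out 1 sample gave 3 to 6 genes higher without overlap, with 6 without standard control 2 or curcumin control 2. There were 4 without standard control 1 or curcumin control 1, and 3 without standard control 3 or curcumin control 3. Lower without overlap were 2 genes without standard control 3, and 1 without curcumin control 1 or 2. For these smaller sample sets the share of all genes was not counted. Cdkn1a differed by 0.55 ± 0.19 (adjusted p 0.998 in limma), 0.44 within array set 1 and 0.42 within array set 2. Its second probe set gave 0.74. That probe set read 257.2, 39.1 and 245.1 in the standard control samples and 76.0, 439.9 and 416.1 in the curcumin control samples. It differed by 1.91 between the array sets, over which these groups are unevenly spread. Kif11 read 232, 332 and 157 in the standard control samples, 295, 293 and 288 in the standard TNBS samples, 336, 367 and 236 in the curcumin control samples and 235, 267 and 331 in the curcumin TNBS samples, which gave 0.40 ± 0.25, while its other 2 probe sets had the opposite sign.

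Whether the TNBS difference depended on diet was tested by the interaction, the TNBS difference on curcumin minus that on the standard diet. It was negative for 36 of 41 genes, with a median of -0.39, and 49.9% of all genes were positive. None of the 41 passed in limma, where 0.0232% of all genes passed as lower and 0% as higher; at an unadjusted p under 0.05, 6 were lower (Rrm2, Cdkn1a, Ccnd1, Cdt1, Mcm5 and Birc5) and none higher, against 7.27% and 5.8%. In the fit with array sets none passed, against 0.00775% of all genes as lower; 9 were lower at that unadjusted level, against 5.91%, and the median was -0.28. Rrm2 had an interaction of -1.40 ± 0.35 (adjusted p 0.249 in limma), -1.01 within array set 1 and -1.56 within array set 2. Cdkn1a had -0.89 ± 0.27 (adjusted p 0.303 in limma), -0.47 within array set 1 and -0.81 within array set 2. For Birc5 the interaction of -1.24 ± 0.57 was -0.16 within array set 1 and -1.72 within array set 2, where set 2 holds standard control 3 and curcumin TNBS 2 and 3. The median over the genes on 430A was likewise -0.15 within set 1 and -0.74 within set 2, and the median over all 41 was -0.24 without standard control 3 and -0.25 without curcumin TNBS 2 and 3. Averaged over diets, the TNBS difference had a median of 0.05, and averaged over enemas the curcumin difference had one of -0.04. Leaving out 1 sample gave -0.04 to 0.11 for the former, -0.04 being without standard control 3 (15 of 41 higher), and -0.14 to 0.01 for the latter, -0.14 being without that sample and 0.01 without standard control 2. For these averages no cell cycle gene passed, as 0% of all genes did.

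The remaining 9 genes had probe sets but none bright enough to be tested: Cdc6, which loads the helicase with Cdt1; Gins1 of the helicase complex; Rfc3 and Rfc4 of the clamp loader; Ccne2, cyclin E2; Bub1 and Ttk of the spindle checkpoint; and the mitotic motors Kif20a and Kif23. Probe sets of the same gene, tested or not, also differed in how far the 2 array sets parted. Set 1 minus set 2 (means of 6 samples each) was -2.51 for an untested, dim E2f1 probe set and -0.70 for the one that stood for the gene, 2.13 for 1 of 3 Kif23 probe sets, none of them tested, and 1.91 for the second Cdkn1a probe set, which was tested, against 0.48 for the one that stood for the gene. Of the 94 probe sets of these genes on 430A, 10 differed by more than 1 (10.6%). Among those tested it was 2 of 55 (3.64%), and 1.9% of all genes tested on 430A. Of the genes themselves only Tk1 was over 1, at 1.02.

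**Figure D4:**
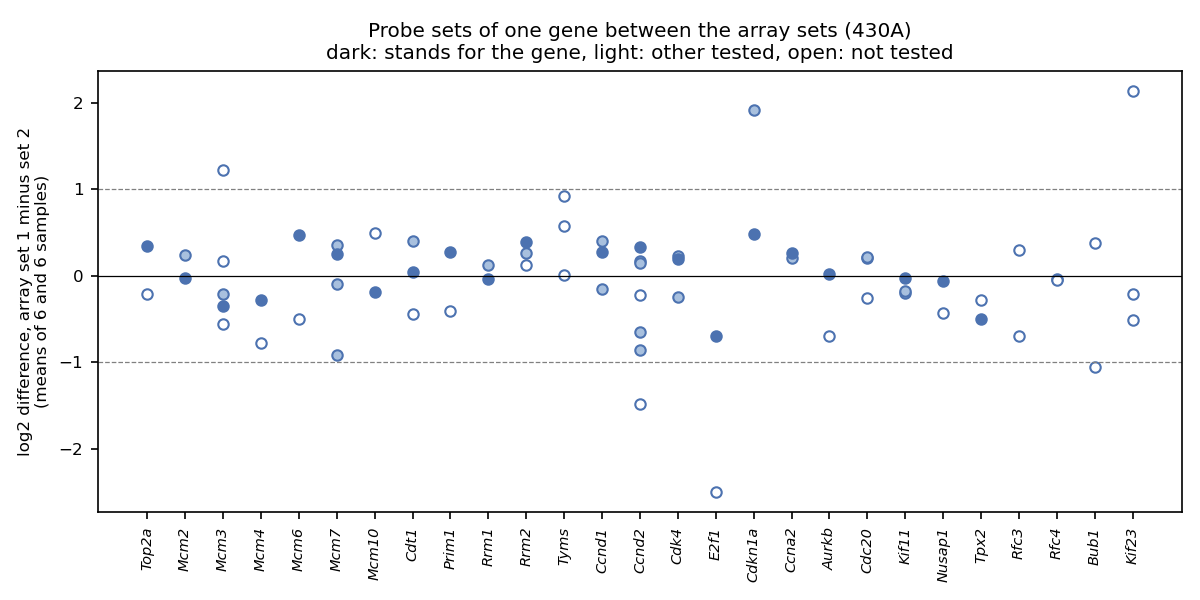
Log2 difference between the 2 sets of 430A arrays (y axis; mean of 6 samples of set 1 minus mean of 6 of set 2) for the probe sets of each gene with more than 1 on 430A (x axis); dark points stand for the gene, light points were also tested, open points were too dim, and dashed lines mark a difference of 1. The farthest points are an untested E2f1 probe set at -2.51 and an untested Kif23 probe set at 2.13.

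A second list of 94 genes of the same pathway, such as the origin recognition complex, replicative polymerases, condensins, retinoblastoma family and further kinesins, was read in the same way. Of the 78 tested, 57 were higher and 21 lower after TNBS on the standard diet (median 0.16), 26 and 52 after TNBS on curcumin (-0.11), 54 and 24 for curcumin without colitis (0.08), and 23 and 55 for curcumin under TNBS (-0.15). Of all genes 48.1%, 47.8%, 49.9% and 49.6% were higher in these comparisons. None of the second list passed in either limma fit in these comparisons; at an unadjusted p under 0.05, 9 were lower and 2 higher for curcumin under TNBS, against 8.74% and 6.75% of all genes. E2f2, an activator E2F read on 430B, had 708, 813 and 431 in standard control, 1251, 927 and 916 in standard TNBS, 617, 645 and 768 in curcumin control and 607, 649 and 452 in curcumin TNBS. Its standard TNBS samples were above all others, with a difference of 0.68 ± 0.24 for TNBS on the standard diet and -0.84 ± 0.24 for curcumin under TNBS (adjusted p 0.818 and 0.0721 in limma). Its difference for curcumin under TNBS was -0.735 in the fit that left out the outlying 430B arrays, which leaves 1 curcumin TNBS sample. Kif4, a chromosome-associated motor, differed by -0.64 ± 0.19 for curcumin under TNBS (adjusted p 0.238 in limma). Gins2, of the helicase complex and also read on 430B, differed by -1.60 ± 0.49 (adjusted p 0.0851 in limma). Without the outlying arrays, again with 1 curcumin TNBS sample left, the Gins2 difference was -1.445. The adjusted p-values given for E2f2 and Gins2 come from the fit that holds the outlying arrays. With 1 sample left, the other values cannot show how far the differences rest on those arrays. Cdca8, a passenger complex subunit, and Pold2, a polymerase subunit, differed by 0.66 and 0.44 for TNBS on the standard diet.

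Some lists of markers of other cells also differed between the groups, and others overlapped. The summed signal of 7 neutrophil markers was 892.1 to 1025.0 in standard control, 4226.9 to 8125.5 in standard TNBS, 1024.0 to 1177.3 in curcumin control and 651.9 to 1442.1 in curcumin TNBS; Cxcr2 was the dimmest of them, at 86.9 on average. For 8 macrophage markers it was 7604.5 to 8955.3, 10396.2 to 12474.3, 7819.0 to 9097.8 and 8340.2 to 9299.5, and for 6 fibroblast markers 19918.0 to 21632.4, 23579.6 to 32824.4, 18302.9 to 22298.3 and 20807.7 to 23964.7. Standard TNBS thus stood above the other groups without overlap in the neutrophil and macrophage lists, and in the fibroblast list the sums overlapped curcumin TNBS alone. By the median log2 deviation over the list, which the bright markers do not dominate, the fibroblast values of standard TNBS (0.29, 0.02 and 0.38) overlapped curcumin control 3 (0.06) as well. The 10 crypt base and Wnt target genes summed to 3588.7 to 3759.9, 3750.7 to 4640.8, 2925.2 to 4192.3 and 3243.6 to 3592.3, so that curcumin TNBS lay below standard TNBS without overlap in the sums, but not in the median deviations (-0.02, 0.15 and 0.32 in standard TNBS, -0.02, -0.09 and 0.13 in curcumin TNBS). The 8 colon epithelium markers were all bright, Cdx2 the dimmest at 1955.1 on average, and their sum overlapped between groups, from 53663.2 to 68376.6 over all samples. The smooth muscle sums (24905.1 to 35742.8) and B cell sums (13230.2 to 16275.1) overlapped as well. For 8 absorptive colonocyte markers curcumin control (47499.7 to 54852.6) lay above standard control (44213.1 to 46363.6) and curcumin TNBS (41767.8 to 45510.4) without overlap in the sums, whereas the median deviations of curcumin control (0.06 the lowest) and standard control (0.07 the highest) overlapped. The 4 adipocyte markers measured summed to less in standard TNBS (2678.9 to 5856.2) than in standard control (6954.1 to 7173.7). The sums of curcumin control (4377.0 to 6928.7) and curcumin TNBS (4850.7 to 7461.4) overlapped those of standard TNBS. Of 6 T cell markers only 1 was bright enough to be tested, and of the 7 neutrophil markers 4 were. The part of these cells in the cell cycle signals was not tested.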

How the data were processed

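Whole mouse colon RNA was measured on 12 MOE430A and 12 MOE430B arrays, 1 of each per sample. The deposited values are probe set signal intensities on a linear scale; per the submitters' processing notes they were made with GCOS, Affymetrix's software (version not given in the sources used here), and the deposited intensities of each array average close to 500 after trimming. Groups come from the labels. Log2(signal + 16) was fitted in limma 3.58.1 (R 4.3.3) with 1 mean per group, lmFit and eBayes with an intensity trend, each array type alone, over probe sets with a mean above the 40th percentile (13575 on 430A, 13506 on 430B), with Benjamini-Hochberg adjustment over all of a type and a threshold of 0.05. Probe sets with more than 1 symbol were left out, among them 1 for Tyms. The tested probe set with the highest mean, from 430A where possible, stood for a gene. The script was tested on simulated data. Signals per sample were given for the genes with the smallest p in each role and for a set of standard proliferation genes. The gene list, the second pathway list, the marker lists and the motifs were chosen with earlier results of these data known. Alternatives were another pseudocount, filter, normalization, variance prior, sample set or probe set rule, an array set term and leaving out each sample; leaving out curcumin TNBS 2 and 3 was chosen after seeing the data.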

Additional observations from a re-analysis of the deposited data

How the results depend on the processing

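The count of cell cycle genes past the threshold stayed at 0 under pseudocounts of 1 and 64, no filter or a filter at the 60th percentile, quantile or median scaling, a fit without the trend, a fit on the compared groups alone, averaged probe sets, the array set term and the loss of curcumin TNBS 2 and 3. Leaving out each sample in turn gave 0 to 2 genes for TNBS on curcumin and 0 to 2 for curcumin under TNBS. It gave 0 to 1 for curcumin averaged over enemas. Genes passed only without curcumin TNBS replicate 1, when the outlying 430B arrays stand alone for their group. How many of all genes passed in that fit was not counted. The median for curcumin without colitis ran from -0.03 to 0.24 when a sample was left out. Under the array set term, which drops these arrays from 430B, and equally without both samples, TNBS on curcumin gave 0.25 for Bub1b and -0.31 for Ccne1, and curcumin under TNBS gave -0.01 for Ccne1; without both samples Birc5 was 0.14 for TNBS on curcumin and Cdkn1a 0.04 for curcumin under TNBS. Single genes were followed in 57 pairs of a gene and a comparison, not in all; among these, leaving out 1 sample turned the sign of curcumin without colitis for Aurka (-0.08 to 0.39), Ccnb2 (-0.09 to 0.36), Cdc20 (-0.01 to 0.49), E2f1 (-0.08 to 0.60) and Top2a (-0.14 to 0.33), and of TNBS on the standard diet for Top2a (-0.10 to 0.37). Over all 41 genes the number higher went from 32 to 17 and from 35 to 26 in these comparisons without standard control 3, so more genes turned sign than those named. Apart from the outlying arrays, the cause was not tested. No paired analysis was possible because the groups share no replicate numbers in the labels. Signal limits 9 of the 50 genes on the arrays, which were too dim to be tested.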
